A study of Mus musculus with 8 samples.

Results

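The genes examined were 7 genes of the mouse vascular endothelial growth factor (VEGF) system, the ligands Vegfa, Vegfb, Vegfc and Pgf and the receptors Flt1 (VEGFR1), Kdr (VEGFR2) and Flt4 (VEGFR3), out of 21938 protein-coding genes of GENCODE M21. The ligand gene Vegfd was not among them and is given with the wider pathway. A differentially accessible region, called a peak here, was assigned to a member if the nearest protein-coding transcription start site (TSS) was the member's or if the peak lay within 10 kb of its gene body. This gave 20 of 15736 listed peaks. They come from an assay for transposase-accessible chromatin with sequencing (ATAC-seq), in which the Tn5 transposase cuts open DNA, on whole mouse hearts of midgestation embryos (E10.5). Chd4 is the ATPase of the NuRD nucleosome remodelling complex. Chd4-CMko embryos came from Chd4 fl/fl females crossed with Tnnt2 Cre/+; Chd4 fl/+ males, so that Cre driven by the cardiomyocyte gene Tnnt2 removes Chd4 in cardiomyocytes while the other heart cells keep it, and WT embryos were control littermates. Each genotype had 4 samples, with 40000 viable cells taken. Each sample was a pool of hearts, 3 by the design text and 4 by the extraction protocol. The study's methods give 3 for E10.5. The deposited data are a list of 12991 peaks more accessible in Chd4-CMko, called gained, and a list of 2745 peaks more accessible in WT, called lost. Both lists pool the samples of a genotype and give no value per sample, so they do not show the depth behind a peak, no value below has a replicate error and no test between genotypes was possible. Neither list holds expression values, so the tissue could not be checked against its marker genes.

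VEGF ligands are secreted dimers that bind receptor tyrosine kinases on endothelial cells. Vegfa acts mainly through Kdr, the chief signalling receptor of blood vessel growth. Flt1 binds Vegfa tightly with weak kinase activity and also takes up Vegfb and Pgf, and Flt4 is the receptor of Vegfc, the ligand of lymphatic vessel growth. In the embryonic heart the myocardium supplies Vegfa, while endothelium and endocardium carry the receptors. Low oxygen raises Vegfa transcription through the hypoxia-inducible factors (HIF).

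The sequences below are those on which the description turns, read from the forward strand of RefSeq's GRCm38 (mm10) genome. Capitals mark exact matches, on either strand, to 13 transcription factor strings that are named with the results. Peaks are numbered along the chromosome within a gene and list. For Vegfa, the 3 neighbouring peaks are shown.
Vegfa gained 2 (chr17:45945088-45945238): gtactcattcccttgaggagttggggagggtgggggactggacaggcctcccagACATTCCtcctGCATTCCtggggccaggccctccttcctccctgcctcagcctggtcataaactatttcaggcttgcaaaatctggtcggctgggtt
Vegfa gained 3 (chr17:45948505-45948655): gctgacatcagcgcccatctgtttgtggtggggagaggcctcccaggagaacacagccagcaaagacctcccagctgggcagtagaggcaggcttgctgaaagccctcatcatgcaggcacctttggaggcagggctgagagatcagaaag
Vegfa gained 4 (chr17:45950605-45950755): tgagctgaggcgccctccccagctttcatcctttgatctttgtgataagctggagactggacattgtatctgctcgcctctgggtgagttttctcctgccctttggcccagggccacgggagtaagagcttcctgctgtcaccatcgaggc

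For Vegfb the stretch upstream of the TSS is shown, for Flt1 the higher of its peaks, for Flt4 the first and last peak in the gene, for Kdr the gained and the lost peak nearest to its TSS, and for Vegfc both lost peaks.
Vegfb gained 1, upstream part (chr19:6987652-6987771): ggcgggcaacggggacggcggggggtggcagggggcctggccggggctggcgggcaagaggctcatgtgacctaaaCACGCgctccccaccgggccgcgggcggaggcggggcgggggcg
Flt1 gained 1 (chr5:147574680-147574830): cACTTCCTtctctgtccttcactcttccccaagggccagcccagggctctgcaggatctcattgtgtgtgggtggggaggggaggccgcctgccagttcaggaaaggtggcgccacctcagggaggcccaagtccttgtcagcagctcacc
Flt4 gained 1 (chr11:49613482-49613632): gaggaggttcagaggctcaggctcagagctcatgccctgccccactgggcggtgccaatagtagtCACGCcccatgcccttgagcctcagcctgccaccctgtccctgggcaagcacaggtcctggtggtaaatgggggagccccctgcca
Flt4 gained 3 (chr11:49645668-49645818): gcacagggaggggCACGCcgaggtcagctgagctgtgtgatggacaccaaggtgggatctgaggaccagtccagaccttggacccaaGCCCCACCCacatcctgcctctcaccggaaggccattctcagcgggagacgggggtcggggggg
Kdr gained 5 (chr5:75990319-75990469): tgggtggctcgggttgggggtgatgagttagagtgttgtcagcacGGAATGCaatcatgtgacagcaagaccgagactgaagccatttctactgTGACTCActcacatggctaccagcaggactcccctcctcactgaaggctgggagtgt
Kdr lost 1 (chr5:75970044-75970194): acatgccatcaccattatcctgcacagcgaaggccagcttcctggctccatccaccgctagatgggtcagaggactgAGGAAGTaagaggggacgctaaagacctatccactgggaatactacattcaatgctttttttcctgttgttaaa
Vegfc lost 1 (chr8:54114720-54114870): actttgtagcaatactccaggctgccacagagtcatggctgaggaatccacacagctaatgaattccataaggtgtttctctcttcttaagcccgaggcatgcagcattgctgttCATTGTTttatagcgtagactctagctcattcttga
Vegfc lost 2 (chr8:54275592-54275742): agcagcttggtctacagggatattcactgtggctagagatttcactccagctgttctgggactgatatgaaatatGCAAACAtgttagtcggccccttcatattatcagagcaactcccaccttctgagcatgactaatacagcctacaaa

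Gained peaks were assigned to 5 of the 7 members, namely Vegfa, Vegfb, Flt1, Kdr and Flt4, against 37.4% of all protein-coding genes by the same rule. Lost peaks were assigned to Vegfc and Kdr, 2 of 7, against 10.8% of all protein-coding genes. Kdr was the member with both, and Pgf had neither. In all, 17 gained and 3 lost peaks were found, each 151 bp wide. Between genes the counts are not on equal terms, since the area in which a peak falls to a gene differs. It was 25.2 kb for Vegfb, 42.0 kb for Pgf, 76.1 kb for Flt4, 194 kb for Vegfa, 242 kb for Flt1, 246 kb for Kdr and 445 kb for Vegfc, with a median over all protein-coding genes of 56.4 kb. The rule itself also sets the count, since 7 gained peaks lay in or within 10 kb of a member's gene body and 8 remained when the nearest TSS of any gene replaced the protein-coding one and the 10 kb part was kept. In bulk hearts a change in the share of a cell type and a change in accessibility per cell cannot be told apart.

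**Figure D1:**
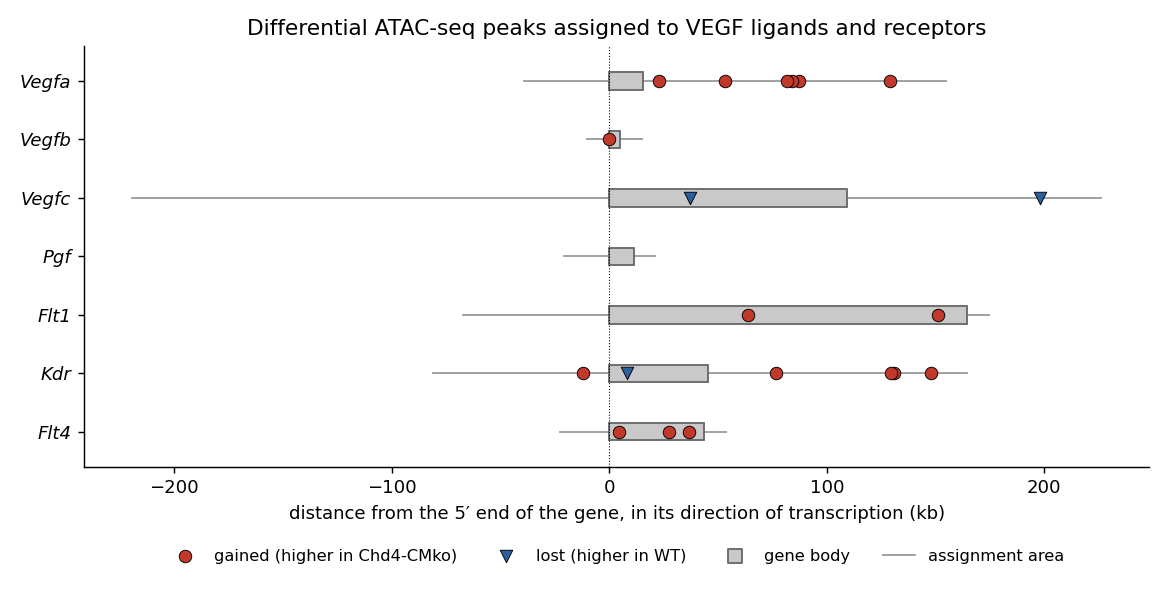
Position of the 17 gained (circles) and 3 lost (triangles) peaks of each gene, in kb from its 5′ end in the direction of transcription, with the gene body as a bar and the assignment area as a line. The 6 Vegfa peaks all lie beyond the 3′ end of the gene, while the 3 Flt4 peaks and both Flt1 peaks lie within the gene.

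Vegfa (ENSMUSG00000023951), the main angiogenic ligand, lies at chr17:46016993-46032369 on the reverse strand and spans 15.4 kb with 8 annotated TSSs. It had 6 gained peaks and no lost peak. At least as many gained peaks were assigned to 298 of the 21938 protein-coding genes (1.36%). All 6 were intergenic and lay past the 3′ end of the gene, with none in the gene body and none on the 5′ side, where the nearest other protein-coding TSS, that of Mrps18a, is 78.6 kb away. On the 3′ side the next protein-coding TSS, that of 1600014C23Rik, is 283 kb away. The Vegfa area held 30.9 gained peaks per Mb against 4.77 per Mb over the genome, 6.49 times as dense.

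The peak closest to Vegfa was gained 6 at chr17:46009266-46009416, 12.0 kb from the nearest Vegfa TSS and 23.0 kb from the 5′ end of the gene. It was the one Vegfa peak within 10 kb of the gene body and had the highest score of the 6, at 137, above 82.0% of the gained list. The score is the value the authors deposited for each peak, without a stated unit. It is compared here only within a list, apart from a common limit in the closing section. Next, gained 5 at chr17:45979131-45979281 lay 42.2 kb from a Vegfa TSS, with a score of 52.0, the lowest of the 6 and the one below the list median of 62.5.

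Farther out, 3 peaks lay close together. Gained 4 at chr17:45950605-45950755 had a score of 76.0 and lay 70.7 kb from a Vegfa TSS. Gained 3 at chr17:45948505-45948655, 72.8 kb away, had a score of 135.5, close to that of gained 6. Gained 2 at chr17:45945088-45945238, 76.2 kb away, had a score of 66.5. Their centres were 2.10 and 3.42 kb apart, whereas the other gaps along this side ran from 28.5 to 41.7 kb. Over the whole gained list, 10.9% of peaks had another gained peak within 5 kb, as did 5 of the 17 peaks of these genes, the 3 Vegfa peaks and a pair at Kdr. The most distant peak, gained 1 at chr17:45903404-45903554, lay 118 kb from Vegfa with a score of 98.0. Along the locus the scores therefore did not fall with distance, as the second highest sat in the middle of the group.

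The link from these peaks to Vegfa is one of position. For gained 1 to 5 the nearest TSS of any gene was that of a long intergenic noncoding RNA, AC127690.2 for gained 1 and AC127690.1 for gained 2 to 5, at 11.2 to 18.1 kb. For gained 6 the nearest TSS of any kind was that of Vegfa. The second nearest protein-coding TSS was 102 to 170 kb away from each of the 6 peaks, against 12.0 to 118 kb for the Vegfa TSS. With the nearest TSS of any gene in place of the protein-coding one, or with only the gene body plus 10 kb, 1 of the 6 peaks stayed with Vegfa.

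Of the other ligands, Vegfb, at chr19:6982473-6987651 on the reverse strand, had 1 gained peak and no lost peak. The peak at chr19:6987621-6987771 covered the TSS, with its centre 45 bp upstream, and reached into the first of 7 exons. Its score of 369.5 was the highest of the 17, rank 133 of the gained list and above 99.0% of it. Vegfb was the one member with a gained peak within 3 kb of an own TSS, against 12.4% of all protein-coding genes. The peak was also the richest of the 20 in G and C, at 80.1%, with 19 CpG dinucleotides against a list median of 2. Vegfb sits among close neighbours, and the TSS of Dnajc4 was 2.11 kb from the peak.

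Vegfc, at chr8:54077606-54187096 on the forward strand, was the one ligand with lost peaks. Lost 1 at chr8:54114720-54114870 lay in intron 1 of 6, 37.0 kb from the nearest Vegfc TSS, with a score of 43.6 against a lost list median of 36.8. Lost 2 at chr8:54275592-54275742 was intergenic on the 3′ side, 198 kb from the TSS, and its score of 62.4 was above 85.0% of the lost list. At least 2 lost peaks were assigned to 2.23% of protein-coding genes. The area of 445 kb held no gained peak, and the nearest one was 494 kb from the 5′ end of Vegfc. Both lost peaks had 44.4% G and C. The direction at Vegfc was thus opposite to that at Vegfa and Vegfb, where all 7 peaks were gained.

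Pgf, the placental growth factor gene at chr12:85166635-85177790, had no peak of either list. The nearest gained peak was 26.5 kb and the nearest lost peak 900 kb from its 5′ end. The lists hold only regions past the authors' limit, so a smaller difference at Pgf would not be seen.

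All 3 receptor genes had gained peaks, 10 together, beside 37.4% of all protein-coding genes with at least 1. Their median area was 242 kb against 56.4 kb for all genes, and with the gene body plus 10 kb only Kdr had 0 gained peaks. Flt1, the receptor shared by Vegfa, Vegfb and Pgf, lies at chr5:147561604-147726011 on the reverse strand and had 2, both in introns. Gained 1 at chr5:147574680-147574830 lay in intron 25 of 29, towards the 3′ end of the gene and 151 kb from its 5′ end. Its score of 199 was above 91.4% of the gained list and the highest among the receptors. By TSS this peak was nearer to Pan3 than to Flt1, at 35.5 against 40.5 kb. Gained 2 at chr5:147661928-147662078 lay in intron 10 of 29, 64.0 kb from the 5′ end and 15.2 kb upstream of an internal Flt1 TSS, with a score of 77.5. The area held 8.28 gained peaks per Mb, the lowest density among the members that had gained peaks.

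Kdr, at chr5:75932827-75978458 on the reverse strand with 1 annotated TSS, had 5 gained peaks and 1 lost peak. At least as many gained peaks were assigned to 2.31% of protein-coding genes. Here the scores were low. Gained 5 at chr5:75990319-75990469, 11.9 kb upstream of the TSS, had the highest, 64.0, which was near the list median. The other 4 lay past the 3′ end with scores of 33.0 to 44.0, all below the median of 62.5, whereas 5 of the 6 Vegfa peaks and all 3 Flt4 peaks were above it. Gained 4 at chr5:75901934-75902084 lay 76.4 kb from the TSS with a score of 39.5. Gained 3 at chr5:75849067-75849217 and gained 2 at chr5:75847435-75847585 were 1.63 kb apart, at 129 and 131 kb, with scores of 33.0 and 41.0. Gained 1 at chr5:75830404-75830554, with a score of 44.0, was the most distant at 148 kb. For each of these 4 a noncoding or unconfirmed gene record had the nearest TSS, and gained 2 and 3 were classed as promoter only because the record Gm38180 starts within 3 kb of the nearest edge of each peak. The next protein-coding TSS for gained 1 to 3 was that of Kit, 181 to 200 kb away.

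The Kdr lost peak at chr5:75970044-75970194 was the only lost peak at a receptor. It lay in intron 3 of 29, 8.34 kb downstream of the TSS and 20.3 kb from gained 5, so that the closest peak upstream and the closest peak downstream of the Kdr TSS had opposite directions. Its score of 27.3 was above 26.0% of the lost list and the lowest of the 3 lost peaks.

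Flt4, the receptor of Vegfc, lies at chr11:49609263-49652739 on the forward strand and had 3 gained peaks, all inside the gene. Gained 1 at chr11:49613482-49613632 lay in intron 1 of 29, 4.29 kb from the TSS, with a score of 150, above 84.6% of the list. Gained 2 at chr11:49636630-49636780 overlapped exon 19 of 30 and was the one peak of the 20 classed as exonic, with a score of 85.0. Gained 3 at chr11:49645668-49645818 lay in intron 27 of 29 with a score of 84.0. Both of these were nearer to the TSS of Scgb3a1, at 26.9 and 17.9 kb, than to that of Flt4. The Flt4 area held 39.4 gained peaks per Mb and no lost peak, in contrast to its ligand Vegfc.

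**Figure D2:**
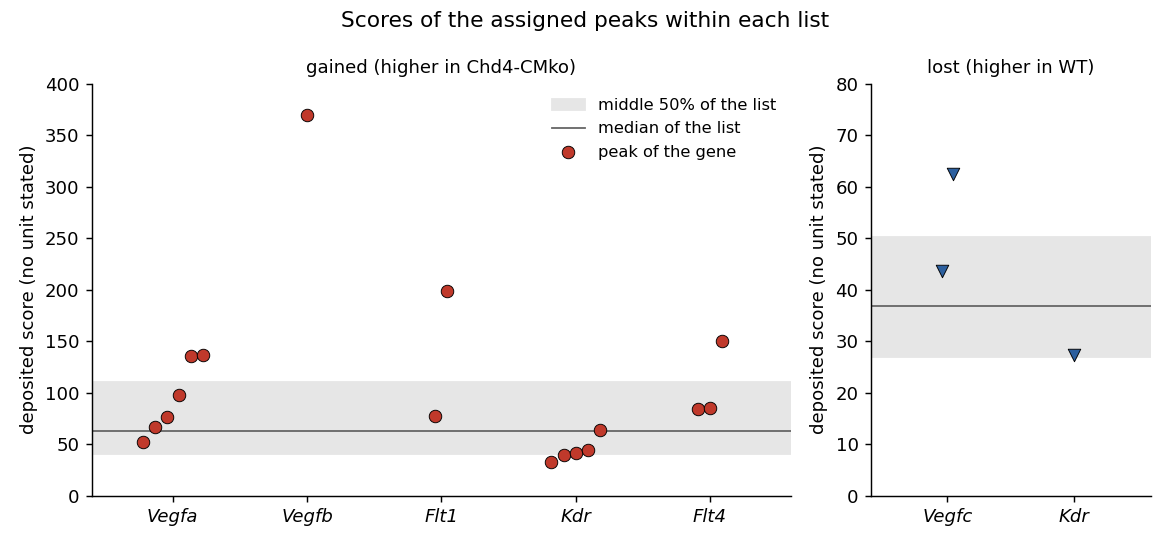
Deposited score (no unit stated) of each assigned peak by gene, gained peaks on the left and lost peaks on the right on separate scales, with the median (line) and the middle 50% (band) of the whole list. The Vegfb peak stands highest at 369.5, and 4 of the 5 Kdr peaks lie below the list median of 62.5.

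By class, of the 17 gained peaks of these genes 9 were intergenic, 4 intronic, 1 exonic and 3 in the promoter class (within 3 kb of any TSS), where the whole list had 32.1% intergenic, 33.0% intronic, 2.65% exonic and 30.9% promoter peaks. Of the promoter peaks, only that of Vegfb was at a TSS of the gene it was assigned to. Scores were above the list median in 12 of 17, with a median of 77.5. By role, the ligand peaks had a median score of 98.0 and the receptor peaks one of 70.8. The ligand peaks were 6 of Vegfa, with a median of 87.0, and 1 of Vegfb. Among the receptors the median was 41.0 for Kdr, 85.0 for Flt4 and 138 for Flt1. The median G and C content was 57.6% in the 17 peaks against 55.0% in the gained list. Vegfa peaks ran from 53.6 to 66.2% and Kdr peaks from 47.0 to 54.3%, so that 5 of the 6 Vegfa peaks were richer than every Kdr peak. The 3 lost peaks, at 44.4 to 48.3%, were below the lost list median of 50.3%. These counts are descriptions of 17 and 3 peaks without a test.

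**Figure D3:**
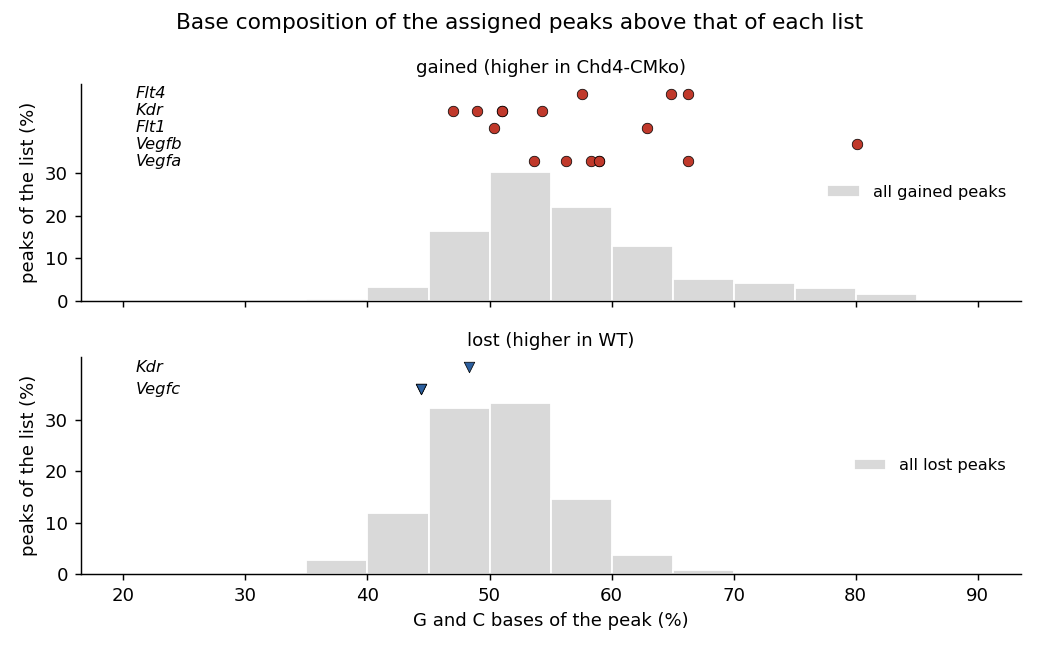
G and C content of the assigned peaks by gene (points above, one row a gene, x axis in %) over the distribution of each whole list (bars, % of the list's peaks). The Vegfb peak lies at 80.1%, the Kdr gained peaks from 47.0 to 54.3% and the 3 lost peaks at 44.4 to 48.3%.

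Each peak was searched on both strands for exact strings of 13 transcription factor families. These were the HIF core (ACGTG or GCGTG), GATA factors (AGATAAG), ETS (AGGAAGT or CGGAAGT), FOX (TGTTTAC or TGTTTGC), SOX (AACAATG), TEAD (ACATTCC or GCATTCC), AP-1 (TGAGTCA or TGACTCA), RUNX (TGTGGTT), NFY (CCAATCA or CCAATCG or CCAATGA or CCAATGG), KLF (GGGCGTGGC or GGGTGTGGC or GGGCGGGGC or GGGTGGGGC), and the MEF2, CTCF and SRF consensus strings. The first KLF string contains the HIF core. A match describes the letters only, and the absence of one says nothing about the factor.

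None of the 6 Vegfa peaks held the HIF core, which stood in 25.5% of all gained peaks. The one Vegfa peak with any of the 13 strings was gained 2, with TEAD strings starting at bases 55 and 66, and 33.6% of all gained peaks had none. All 3 Flt4 peaks held the HIF core, gained 2 at bases 105 and 125, and gained 3 also held a KLF string, which 14.4% of gained peaks had. The HIF core further stood in the Vegfb peak and in Kdr gained 1, so in 5 of the 17. ETS factors are regulators of endothelial genes, and their string stood in Flt1 gained 1, in Kdr gained 4 and in the Kdr lost peak, against 8.40% of gained and 5.61% of lost peaks. Kdr gained 5 held both a TEAD and an AP-1 string, found in 6.47% and 4.19% of gained peaks. NFY strings stood in Flt1 gained 2 at bases 108 and 125 and in Kdr gained 3, against 19.2% of gained peaks. At Vegfc, lost 1 held a SOX string and lost 2 a FOX string, which 3.06% and 5.97% of lost peaks had. No GATA, RUNX, MEF2, CTCF or SRF string was found in the 20 peaks, where 5.45%, 2.10%, 3.26%, 0.285% and 2.46% of all gained peaks and 4.92%, 3.24%, 1.46%, 2.48% and 0.291% of all lost peaks held one.

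Kdr gained 3 and gained 4, 52.9 kb apart, shared a run of 17 bases on opposite strands. The search was chosen after the sequences were seen, and the run is printed because no other pair of the 20 peaks shared 14 or more.
Shared run, as in Kdr gained 3: gatcaagaaccaattgg
The same run, on either strand, stood in 20 of the 12991 gained peaks and in 0 of the 2745 lost peaks. Of gained 3 and gained 4, 23.2% and 44.4% of the bases were marked as repeats in the genome sequence, the latter the highest share of the 20.

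**Figure D4:**
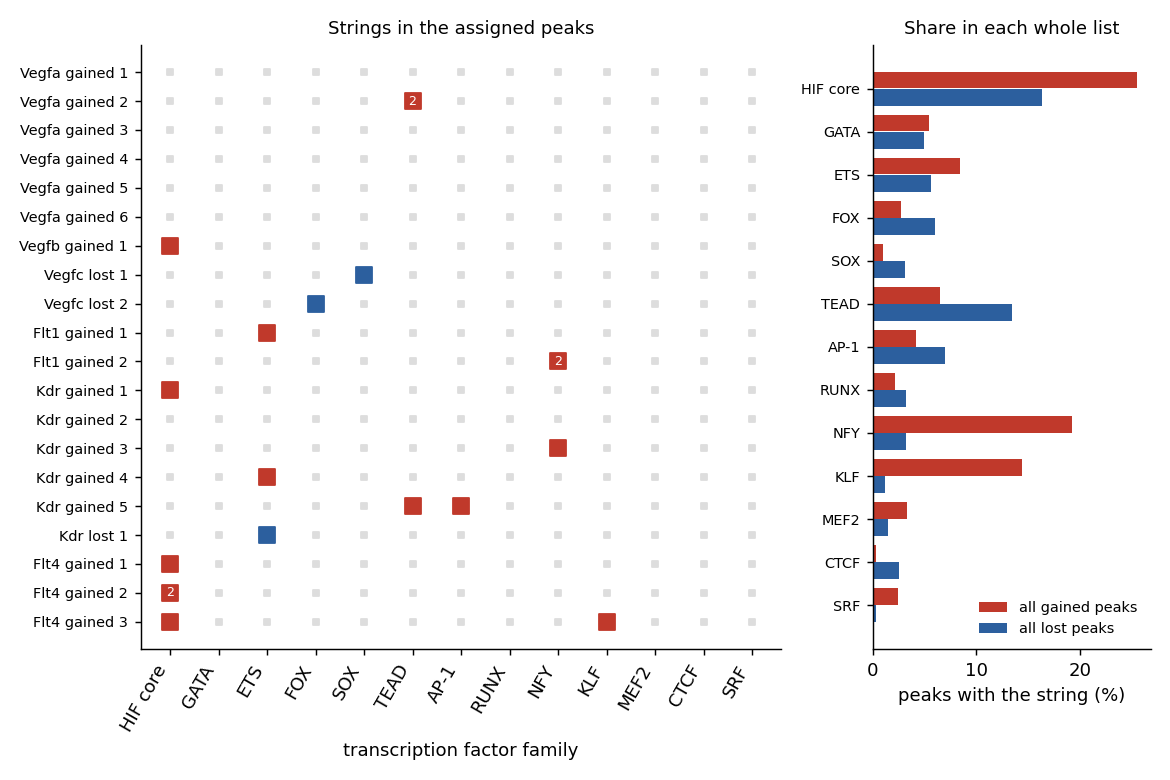
Presence of the 13 strings (columns) in each of the 20 peaks (rows), with the number of matches where above 1, and the % of all gained and all lost peaks with each string (bars). Of the 6 Vegfa peaks only gained 2 holds a string, while all 3 Flt4 peaks hold the HIF core.

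The wider pathway was described with a list of 52 genes. Of these, 31 had a gained peak, 13 a lost peak, 11 both and 19 neither, against 37.4% and 10.8% of all protein-coding genes. Their median area of 91.5 kb was larger than the 56.4 kb of all genes, so more peaks could fall to them. Both neuropilins, co-receptors of Vegfa and Vegfc, had gained peaks, 5 for Nrp1 and 7 for Nrp2, and Nrp2 had 2 lost peaks as well. Their areas were wide, at 553 and 712 kb, so that the density was 9.04 and 9.83 gained peaks per Mb, close to the 8.28 of Flt1. Ccbe1 and Adamts3, which are needed to cut Vegfc into its active form, had 2 gained peaks each, with top scores of 106.5 and 206.5, and Ccbe1 had 1 lost peak. Vegfd, the other ligand of Flt4, had no peak.

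The shares over all protein-coding genes, 37.4% for gained and 10.8% for lost peaks, stand beside each count here too. Of 8 regulators of the hypoxia response, 5 had gained peaks. These were the HIF subunits Hif1a, Epas1, Hif3a and Arnt and the prolyl hydroxylase Egln3, which marks HIF for decay, while Vhl, Egln1 and Egln2 had none of either kind. Epas1 and Egln3 also had lost peaks. Of 28 signal transducers, 15 had gained and 7 had lost peaks. The highest scores were those of peaks assigned to Plcg1, the phospholipase activated by Kdr, at 457.5, the kinase Src at 447.5 and the kinase Akt1 at 434.5. Both Plcg1 peaks, the Akt1 peak and 1 of 6 Src peaks were in the promoter class, which counts a TSS of any gene. Their distances to the TSSs of these genes are not given here. Of 11 partners in vessel growth, 7 had gained peaks, among them Angpt2, Dll4, Notch1, Efnb2 and Prox1, and 4 had neither kind. The 2 with lost peaks, Angpt1 and Efnb2, also had gained peaks. Efnb2 had 9 gained and 3 lost peaks in a wide area of 1799 kb. Its density of gained peaks was close to the 4.77 per Mb over the genome.

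The PDGF family, the most closely related ligands and receptors, served as the comparison. Gained peaks were assigned to 3 of its 6 genes, Pdgfa with 4, Pdgfc with 2 and Pdgfra with 2, and no gene had a lost peak. Per area, Pdgfa with 38.7 gained peaks per Mb stood below Vegfb with 39.7 and Flt4 with 39.4. It stood above Vegfa with 30.9, Kdr with 20.4 and Flt1 with 8.28. Pdgfc and Pdgfra with 3.92 and 7.86 stood below every member that had a gained peak. The difference between the families was not tested. Among marker genes, again beside 37.4% and 10.8% of all protein-coding genes, 13 of 17 endothelial and endocardial markers had a gained peak and 4 a lost peak, and 14 of 18 cardiomyocyte markers had a gained peak and 1 a lost peak. Gained and lost peaks stood at 4 and 4 of 10 epicardial markers, 6 and 4 of 10 mesenchymal markers and 2 and 6 of 12 erythroid markers. The share of markers with a gained peak was thus above that of all genes for endothelial, cardiomyocyte and mesenchymal markers, near it for epicardial markers and below it for erythroid markers. The share with a lost peak was above that of all genes for each of these lists except the cardiomyocyte markers, where it was below. The median area was 176 kb for the endothelial, 50.5 kb for the cardiomyocyte, 264 kb for the mesenchymal, 68.7 kb for the epicardial and 25.3 kb for the erythroid markers, against 56.4 kb for all genes. The part of these cell types in the peaks of the receptors was not tested.

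**Figure D5:**
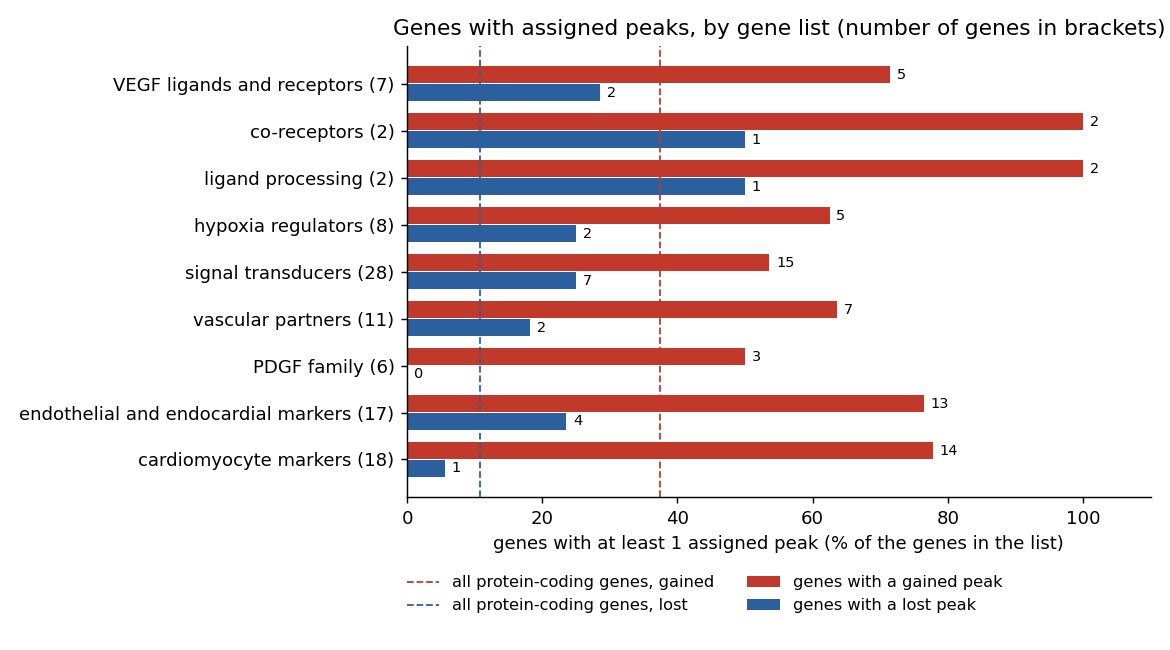
Share of genes (x axis, %) with at least 1 gained or lost peak in each gene list, with the number of such genes at the bar and the size of the list in brackets. Dashed lines give the share of all protein-coding genes, 37.4% for gained and 10.8% for lost peaks.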

How the data were processed

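ATAC-seq was performed on 8 samples, 4 per genotype. Per the labels and the study's methods, reads were aligned to mm10 with BWA-MEM, and peaks were called with HOMER 4.10.3 at a fold limit and annotated with ChIPseeker 1.20.0. The authors deposited 2 BED lists, one per direction, whose column 5 holds a score of no stated unit. Gained scores were multiples of 0.5 and lost scores followed steps of about 0.22, so scores were ranked only within a list. The authors combined the samples, and the lists hold no reads per sample or per peak, so no intervals are given.

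The members and gene lists were chosen with earlier results of these data known. Peaks were assigned with GENCODE M21 by the distance from the peak centre to the nearest TSS of any transcript of a protein-coding gene, or by lying within 10 kb of the gene body. Classes were taken in the order promoter (nearest edge within 3 kb of a TSS), UTR, exon, intron and intergenic. The named genes are all 7 members, genes with a peak from the pathway and PDGF lists, and genes nearest to a peak of a member. Outside this rule, Vegfd, Vhl, Egln1 and Egln2 are named as list genes without a peak, and Mrps18a, 1600014C23Rik, Dnajc4 and Kit as the next protein-coding genes, after their values were seen. Sequences are from RefSeq GRCm38, and that of Vegfa gained 6 is not reported here. Assignment, classing and string search used Python 3.11.15, numpy 2.4.6 and pandas 2.3.3 and were tested on simulated data, and figures used matplotlib 3.10.9. The closing section gives the effect of 9 alternative settings. No sample values were available for a test between genotypes.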

Additional observations from a re-analysis of the deposited data

How the results depend on the processing

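The assignment rule set how many peaks the members received. The 17 gained peaks became 7 with the gene body plus 10 kb only and 8 with the nearest TSS of any gene or within 10 kb of the gene body (3 of the 8, Flt1 gained 1 and Flt4 gained 2 and 3, by the latter alone), and Vegfa then kept 1 of its 6 in either case, while Kdr kept 0 and 1 of its 5. With the nearest protein-coding TSS alone, Flt1 kept 1 of 2 and Flt4 1 of 3 gained peaks. With a limit of 100 kb Kdr kept 2 of its 5 gained peaks and Vegfc kept 1 lost peak. Vegfc also kept 1 lost peak with the gene body plus 10 kb only. With only the peaks above the median score of their list, Kdr kept 1 gained and 0 lost peaks, members with a lost peak fell from 2 to 1, and the shares of all protein-coding genes with a gained and a lost peak were 24.5% and 6.04%. With a common score limit of 36.8, the median of the lost list, Kdr kept 0 lost peaks, members with a lost peak were also 1 and the lost share 6.04%. For the lost list this limit repeats the setting before it by construction, and the 2 lists may not share a scale. The 13 pathway genes with a lost peak became 7 with the gene body plus 10 kb only and 8 with TSSs of any gene, with peaks above the median score and with the common limit. With a promoter window of 1 kb, 1 gained peak of the members was classed as promoter instead of 3. Of 60 values for whole gene groups, 48 stayed within 1.5 times under these settings and 12 did not. In searches chosen after the sequences were seen, a MEF2 string with 1 mismatch stood in Vegfa gained 1 (10.7% of gained peaks). In these searches GATAAG stood in Vegfa gained 4 and Flt1 gained 2 (9.88%). CAGCTG stood in 4 gained peaks (13.2%), among them Vegfa gained 3, Kdr gained 2 and Flt4 gained 3. It also stood in Vegfc lost 2, where 15.4% of all lost peaks held it. No paired analysis was possible because the lists carry no value per sample, and for the same reason no replicate could be left out. Depth could not be weighed, and a member without a peak may differ by less than the limit the authors set.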
